A study of Mus musculus with 4 samples.

Results

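Respiratory complex I (NADH:ubiquinone oxidoreductase) was followed through the transcripts of its nuclear-encoded subunits and assembly factors in differentiated 3T3-L1 cells. The members were the genes whose symbol starts with Nduf, 48 of the 16051 genes in the expression table. Genes named Ndufaf, 8 in number, were taken as assembly factors and the remaining 40 as subunits. A mean of at least 1 FPKM (fragments per kilobase of transcript, scaled to the number of mapped fragments) over the libraries was required for testing, which 46 members and 10243 genes in all passed. 3T3-L1 is a mouse embryonic fibroblast line, labelled as NIH SWISS, that can be driven to form fat cells in culture. The differentiated cells received the vehicle dimethyl sulphoxide (DMSO) or the antipsychotic risperidone at 100 μM for 48 h. Each treatment gave 2 mRNA libraries, called DMSO 1 and 2 and risperidone 1 and 2, and the RNA of 3 cultures was combined in every library, so that p-values measure the spread between such pools. The labels name the control cells untreated, the tissue embryonic and the RNA source retina, whereas the study's methods name DMSO and the cell line, which were followed here.

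The libraries held 15883712 to 16374119 estimated counts. A count of 0 in a library allows up to 3 counts by counting error alone, which is 0.183 to 0.189 CPM by library total (CPM below are counts scaled to library size times a normalisation factor). Of 10 adipocyte markers, 3 passed the filter, with Fabp4 and Lpl lower in risperidone and Pparg not called, while Adipoq, Plin1, Cebpa, Lep, Cidec, Retn and Cfd were at 0 to 0.854 CPM in every library. The label adipocyte was therefore carried by few of its defining transcripts. Of 7 preadipocyte or fibroblast markers, 7 passed the filter, 4 (57.1%) were higher and 2 (28.6%) lower in risperidone, where 32.1% and 32.2% of all genes tested were, and their summed level was 2740 and 2680 CPM in DMSO and 4780 and 4520 CPM in risperidone. That sum was carried by Col1a1, at 2140 and 2068 CPM in DMSO and 4312 and 4033 CPM in risperidone, while Gas1 fell from 291 and 313 CPM to 43.0 and 49.9 CPM. Of 4 macrophage markers in the table, 1 passed the filter and was higher in risperidone, and of 5 retina and 3 brown adipocyte markers in the table none did. The summed level of 12 kidney tubule markers was 6.12 and 5.31 CPM in DMSO, 4.41 CPM in risperidone 1 and 237 CPM in risperidone 2, so results are also given below without that library. In bulk RNA, a change in the share of a cell type cannot be told apart from a change in RNA per cell.

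Complex I is the entry point of electrons from NADH into the mitochondrial respiratory chain. Its N module oxidises NADH and passes the electrons along iron-sulphur clusters, its Q module hands them to ubiquinone, and its membrane arm, built from the ND1, ND2, ND4 and ND5 modules around subunits encoded in mitochondrial DNA, pumps protons. The core subunits carry out catalysis and are conserved from bacteria, the accessory subunits surround and stabilise them, and assembly factors help to build the complex but are absent from the finished enzyme. In fat-forming cells mitochondrial respiration rises as the cells differentiate. The membrane-arm core subunits encoded in mitochondrial DNA were not analysed here, since 0 of their symbols matched the table, so every core subunit below belongs to the N or Q module.

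Transcripts of complex I called different were mostly higher in risperidone-treated cells on normalised counts. On the TPM scale described below, most of those called were lower, where 51.7% of all genes were called lower and 15.0% higher. The median log2 fold change of the tested members, less that of all genes, was 0.20 on normalised counts and 0.17 on TPM. In the quasi-likelihood test of edgeR, at a Benjamini-Hochberg adjusted p under 0.05 over all genes tested, 25 of 46 tested members were higher, 1 was lower and 20 were not called. Over all genes tested 32.1% were higher and 32.2% lower, against 54.3% and 2.17% of the tested members. In either direction, 56.5% of the tested members and 64.3% of all genes were called. The changes were small. The median log2 fold change of the tested members was 0.20, with a range from -0.24 to 0.71, beside a median of 0.0004 over all genes. Both risperidone libraries lay above both DMSO libraries in 30 members and below them in 6, where 41.2% and 41.7% of all genes did so. The called members included 22 subunits higher and 1 lower of 38 tested, and 3 assembly factors higher and 0 lower of 8.

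**Figure D1:**
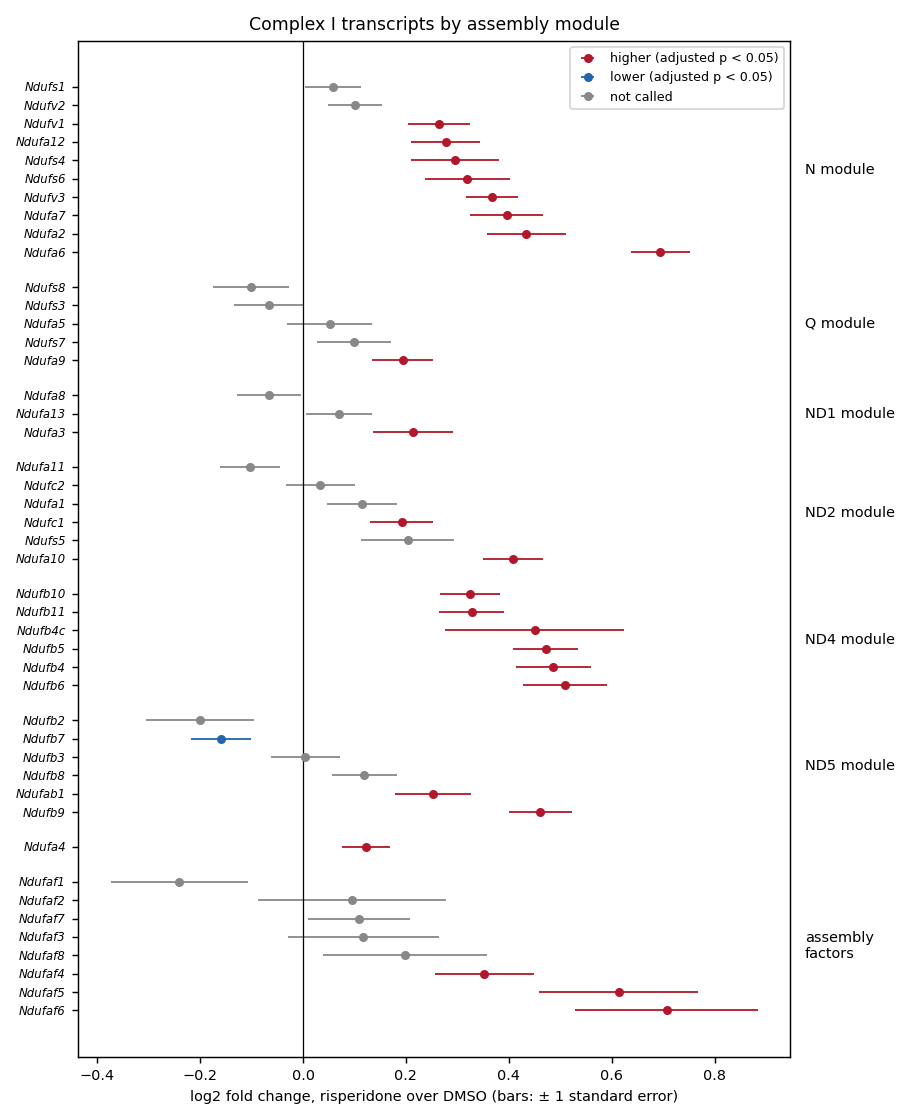
Log2 fold change of 45 tested members, risperidone over DMSO, from the quasi-likelihood test of edgeR on counts with TMM scaling (points, with bars of 1 standard error either way), grouped by assembly module. The 6 ND4 module members lie between 0.32 and 0.51 and the 10 N module members all lie above 0, while the other modules straddle 0 and Ndufb7 is the single member called lower (-0.16). On the TPM scale 16 members were called lower and 10 higher, where 51.7% and 15.0% of all genes were.

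The directions depended on how libraries were scaled and on gene length. The deposited TPM values (transcript shares, with equal sums over the libraries) set the median of all genes at -0.22, and on that scale limma called 10 members higher and 16 lower, where 15.0% and 51.7% of all genes were called. With library size as the only scaling, 18 members were higher and 6 lower, where 24.4% and 39.9% of all genes were called. DESeq2 called 18 higher and 0 lower, where 25.8% and 25.9% of all genes were called. Complex I transcripts are short, with a median of 555 bases as counts and FPKM imply it, against 2700 over all genes. By the longest annotated transcript of each gene, the medians were 1200 and 3438 bases. With offsets that remove the trend of the fold change with length, 17 members were higher and 5 lower, where 32.6% and 31.8% of all genes were called. With offsets for length and GC content, 16 of 45 members were higher and 6 lower, where 33.2% and 32.1% of all genes were called. Across genes, which are not independent replicates, the correlation of log2 fold change with log length was -0.136 over all 10243 genes and -0.0856 over the 46 members. Higher calls held under all 16 alternative settings for 9 members, among them Ndufa2, Ndufa6, Ndufa10, Ndufb4, Ndufb5, Ndufb6, Ndufb9 and Ndufaf6.

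Members were generally nearer to DMSO in risperidone 2 than in risperidone 1. The level was higher in risperidone 1 than in risperidone 2 for 39 of 46 members, with a median log2 difference of 0.094, beside -0.0001 over all genes. Relative to the mean of the DMSO libraries, the median member stood at 0.27 on the log2 scale in risperidone 1 and at 0.15 in risperidone 2. The DMSO libraries did not differ in this way, since 19 of 46 members were higher in DMSO 1 than in DMSO 2. Without risperidone 2, the library with kidney tubule transcripts, 30 members were higher and 0 lower, where 32.3% and 32.7% of all genes were called. Without risperidone 1, 20 were higher and 0 lower, where 30.1% and 30.6% of all genes were called. With a library left out, its treatment is left with 1 library, which is assumed to vary as the remaining pair does, so each such p-value rests on the spread within the other treatment alone and a lost or gained call need not mean a changed fold. The part that kidney transcripts had in the levels of risperidone 2 was not tested.

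Upstream sequence is shown for 3 subunits with contrasting changes: Ndufa6, the subunit with the largest change, Ndufb6, the largest change of the ND4 module, and Ndufb7, the member called lower. Each stretch holds 130 bases of the strand of the gene, from RefSeq on GRCm38.p6, at chr15:82354342-82354471 (minus strand) for Ndufa6, chr4:40279472-40279601 (minus strand) for Ndufb6 and chr8:83566528-83566657 (plus strand) for Ndufb7. The first and the second run from 180 to 51 bases before the annotated start, the third from 230 to 101 bases before it, and all lie outside the annotated transcripts of these genes. Capitals mark the letters GCATGCG, the core of the binding motif of NRF1, a regulator of nuclear respiratory genes.
Ndufa6: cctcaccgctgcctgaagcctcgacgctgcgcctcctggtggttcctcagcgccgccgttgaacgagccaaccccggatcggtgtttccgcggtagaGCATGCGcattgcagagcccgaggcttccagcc
Ndufb6: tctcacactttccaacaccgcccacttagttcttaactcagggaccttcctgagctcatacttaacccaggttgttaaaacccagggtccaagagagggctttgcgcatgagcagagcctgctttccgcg
Ndufb7: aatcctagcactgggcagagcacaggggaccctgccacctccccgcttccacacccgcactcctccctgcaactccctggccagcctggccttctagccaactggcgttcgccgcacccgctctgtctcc
The Ndufa6 stretch held the NRF1 letters from 83 to 77 bases before the start, and the stretches of Ndufb6 and Ndufb7 held none of the 4 sets of letters searched, although their whole windows held the ETS letters outside the stretch shown. The sets were GCATGCG (NRF1), CCGGAAG (ETS factors such as GABP), AAGATGG (YY1) and AAGGTCA (oestrogen-related receptors), on both strands, in windows of 300 bases from 250 before to 50 after the start, which 40 members had. The NRF1 letters were in 5 of 40 member windows (12.5%) and in 8.0% of the 8329 windows of tested genes, the ETS letters in 6 (15.0%) and 22.2%, the YY1 letters in 8 (20.0%) and 8.9%, and the oestrogen-related receptor letters in 3 (7.5%) and 3.7%. Of the 20 members called higher that had a window, 3 held the NRF1 letters, 1 the ETS letters, 5 the YY1 letters and 1 the oestrogen-related receptor letters, and of the 20 other members 2, 5, 3 and 2 did. In the ND4 module, the NRF1 and YY1 letters were in 0 of 5 windows and the ETS and oestrogen-related receptor letters in 1 of 5 each. A match is a description of letters and not a site.

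In the N module, which oxidises NADH, 8 of 10 members (80.0%, beside 32.1% of all genes) were higher in risperidone and 0 lower, with a median log2 fold change of 0.31. In all 10 both risperidone libraries lay above both DMSO libraries, where 41.2% of all genes did so. Ndufa6 (chr15:82350139-82354291), an accessory subunit of the LYR family that binds the mitochondrial acyl carrier protein, stood at 67.0 and 66.7 CPM in DMSO and at 112 and 105 CPM in risperidone. Its groups were well apart, and it was 1.62-fold higher (log2 fold change 0.69 ± 0.057, SE), with an adjusted p of 1.96e-06 by edgeR. Among the core subunits of the module, Ndufv1, which binds NADH and the flavin, rose from 67.7 and 68.7 CPM to 83.7 and 80.0 CPM (log2 fold change 0.26 ± 0.060, adjusted p = 0.00255, edgeR). Ndufv2, an iron-sulphur subunit, was at 87.8 and 85.9 CPM in DMSO and 93.7 and 92.6 CPM in risperidone, and Ndufs1, the largest iron-sulphur subunit, at 83.4 and 81.5 CPM and at 86.4 and 85.2 CPM. Neither was called, with log2 fold changes of 0.10 ± 0.052 and 0.058 ± 0.055 and adjusted p of 0.114 and 0.371 by edgeR, and on TPM both were called lower (adjusted p = 0.0356 and 0.0125, limma). The accessory subunits Ndufa2, Ndufa7, Ndufa12, Ndufs4, Ndufs6 and Ndufv3 were all called higher, with log2 fold changes from 0.28 (Ndufa12) to 0.43 (Ndufa2). Ndufs4, which holds the N module to the rest of the complex, was not called without risperidone 1 (log2 fold change 0.16, adjusted p = 0.126, edgeR), and Ndufs6, a zinc-binding subunit, not without DMSO 2 (log2 fold change 0.30, adjusted p = 0.0799, edgeR). With length offsets Ndufa12 and Ndufs6 fell to log2 fold changes of 0.097 and 0.13 and were not called (adjusted p = 0.204 and 0.201, edgeR), likewise with length and GC offsets. DESeq2 called neither Ndufs4 nor Ndufs6, both FPKM scales neither Ndufa12 nor Ndufs4, and library size only and no filter did not call Ndufs4. On TPM the calls of Ndufv1, Ndufa7, Ndufa12, Ndufs4, Ndufs6 and Ndufv3 were lost.

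In the Q module, which reduces ubiquinone, 2 of 6 members (33.3%, beside 32.1% of all genes) were higher and 0 lower, with a median log2 fold change of 0.075. Ndufa9, an accessory subunit beside the ubiquinone site, stood at 72.5 and 74.6 CPM in DMSO and 86.5 and 81.7 CPM in risperidone. Its groups did not overlap, and it was called higher (log2 fold change 0.19 ± 0.060, adjusted p = 0.0148, edgeR), but not without DMSO 1 or without DMSO 2 (log2 fold change 0.17 and 0.21, adjusted p = 0.142 and 0.0723, edgeR). The Ndufa9 call was also lost with length offsets (log2 fold change 0.11, adjusted p = 0.113, edgeR), with length and GC offsets, with library size only, on both FPKM scales and on TPM.

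Ndufs3, Ndufs7 and Ndufs8, core subunits of the Q module, were not called, and their libraries overlapped or lay slightly lower in risperidone. Ndufs3 was at 60.2 and 63.9 CPM in DMSO and 61.5 and 56.9 CPM in risperidone (log2 fold change -0.067 ± 0.068). Ndufs7, which carries the last cluster before ubiquinone, was at 45.4 and 44.8 CPM in DMSO and 51.4 and 45.1 CPM in risperidone (log2 fold change 0.099 ± 0.072). Ndufs8, the other iron-sulphur subunit of the module, was at 23.2 and 23.9 CPM in DMSO and 21.7 and 22.2 CPM in risperidone (log2 fold change -0.10 ± 0.075). Of these, Ndufs8 alone had groups that did not overlap, with risperidone lower, and Ndufs3 and Ndufs7 overlapped. Ndufs7 was called higher without risperidone 2 (log2 fold change 0.19, adjusted p = 0.0227, edgeR) and lower on TPM (adjusted p = 0.0422, limma). Ndufs3 and Ndufs8 were called lower with length offsets (log2 fold change -0.19 and -0.23, adjusted p = 0.0216 and 0.0157, edgeR), with length and GC offsets, on both FPKM scales and on TPM, and Ndufs8 also with library size only (adjusted p = 0.0405, edgeR). The remaining accessory subunit, Ndufa5, had a log2 fold change of 0.052 and overlapping groups, and on TPM it was called lower (adjusted p = 0.029, limma). Without risperidone 1 the module's median, less that of all genes, was -0.035.

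In the ND1 module, next to the Q module in the membrane arm, 1 of 3 members was higher (33.3%, beside 32.1% of all genes) and 0 lower. Ndufa3 (chr7:3617347-3620165), a small accessory subunit, stood at 34.9 and 31.7 CPM in DMSO and 41.3 and 35.9 CPM in risperidone. The groups of Ndufa3 lay close, and its log2 fold change of 0.21 ± 0.078 (adjusted p = 0.0318, edgeR) was not called without DMSO 2 (0.15, adjusted p = 0.170) or without risperidone 1 (0.11, adjusted p = 0.287). The Ndufa3 call was also lost under DESeq2, without the filter, with library size only, on both FPKM scales, on TPM and with both kinds of offset, and its sign turned on TPM and with the offsets. Ndufa8, a twin-cysteine-motif subunit of the intermembrane space, and Ndufa13, also known as GRIM-19, were not called, with log2 fold changes of -0.066 and 0.069, and Ndufa13 was called higher without risperidone 2 (log2 fold change 0.15, adjusted p = 0.0319, edgeR) and lower on TPM (adjusted p = 0.0155, limma). Ndufa8 was called lower with length offsets (log2 fold change -0.21, adjusted p = 0.0118, edgeR), with length and GC offsets, with library size only, on both FPKM scales and on TPM. The module's median was 0.069, and -0.0095 less that of all genes without risperidone 1.

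In the ND2 module, 2 of 6 members were higher (again 33.3% beside 32.1%) and 0 lower, with a median log2 fold change of 0.15. Ndufa10 (chr1:92439486-92473825), an accessory subunit with a nucleoside-kinase fold, stood at 69.1 and 68.9 CPM in DMSO and 89.1 and 94.0 CPM in risperidone. It was 1.33-fold higher (log2 fold change 0.41 ± 0.058, adjusted p = 0.000110, edgeR), without overlap, and unlike most members its level was higher in risperidone 2 than in risperidone 1. Ndufc1 was called with a log2 fold change of 0.19, but not without DMSO 1 or without risperidone 1 (log2 fold change 0.18 and 0.13, adjusted p = 0.0717 and 0.146, edgeR), and its call was lost under the same other settings as that of Ndufa3, with the sign turned under the same ones. Ndufc2, Ndufa1, Ndufs5 and Ndufa11 were not called, with log2 fold changes of 0.034, 0.11, 0.20 and -0.10. Of these, Ndufa1 was called higher without risperidone 2 (log2 fold change 0.20, adjusted p = 0.0293, edgeR), and Ndufs5 without risperidone 2 or without DMSO 2 (log2 fold change 0.30 and 0.34, adjusted p = 0.0137 and 0.0033, edgeR). Ndufa11 was called lower with library size only (log2 fold change -0.20, adjusted p = 0.0115, edgeR), with length and GC offsets, on both FPKM scales and on TPM, and Ndufa1 and Ndufc2 were called lower on TPM.

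In the ND4 module, near the far end of the membrane arm, 6 of 6 members (beside 32.1% of all genes) were higher in risperidone. Their median log2 fold change was 0.46, with a range from 0.32 to 0.51. Ndufb6 (chr4:40270591-40279421) stood at 20.2 and 21.0 CPM in DMSO and 31.4 and 27.4 CPM in risperidone. The groups did not overlap, and Ndufb6 was 1.42-fold higher (log2 fold change 0.51 ± 0.082, adjusted p = 0.000252, edgeR). Ndufb4 and Ndufb5 had log2 fold changes of 0.49 and 0.47, and Ndufb10, a twin-cysteine-motif subunit, and Ndufb11, which is X-linked, had 0.32 and 0.33. These accessory subunits surround the proton channel subunit ND4, which is encoded in mitochondrial DNA. Ndufb4c, a close copy of Ndufb4, was at 7.42 and 5.49 CPM in DMSO and 8.51 and 9.16 CPM in risperidone (log2 fold change 0.45 ± 0.17). Counts of Ndufb4 and Ndufb4c were not whole, so reads were split between them and the value of each is uncertain. Ndufb4c was not called without DMSO 2 or without risperidone 2 (log2 fold change 0.25 and 0.40, adjusted p = 0.356 and 0.0769, edgeR), and without it the module held 5 of 5 higher, with a median of 0.47. It was also not called with length offsets (log2 fold change 0.25, adjusted p = 0.249, edgeR), DESeq2, library size only, no filter or TPM. Ndufb10 lost its call with length and GC offsets (log2 fold change 0.13, adjusted p = 0.0641, edgeR) and, like Ndufb11, on TPM.

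In the ND5 module, at the tip of the membrane arm, 2 of 6 members were higher (33.3%) and 1 lower (16.7%), beside 32.1% and 32.2% of all genes, with a median log2 fold change of 0.062. Ndufb9 (chr15:58933801-58939516), the other LYR family subunit, stood at 94.0 and 99.3 CPM in DMSO and 141 and 125 CPM in risperidone. It was 1.38-fold higher without overlap (log2 fold change 0.46 ± 0.062, adjusted p = 6.62e-05, edgeR). Its partner Ndufab1, the mitochondrial acyl carrier protein, which also serves fatty acid and lipoic acid synthesis in mitochondria, had a log2 fold change of 0.25 and was not called without risperidone 1 (log2 fold change 0.14, adjusted p = 0.139, edgeR). The Ndufab1 call was also lost with length offsets (log2 fold change 0.095, adjusted p = 0.263, edgeR), with length and GC offsets, library size only, no filter, DESeq2, both FPKM scales and TPM. Ndufb7 (chr8:83566758-83571623), a twin-cysteine-motif subunit, was the member called lower, at 40.4 and 42.6 CPM in DMSO and 37.5 and 36.8 CPM in risperidone. Its groups did not overlap (log2 fold change -0.16 ± 0.058, adjusted p = 0.0323, edgeR), but the call was lost without DMSO 2, risperidone 1 or risperidone 2 (log2 fold change -0.12, -0.17 and -0.15, adjusted p = 0.216, 0.0668 and 0.105) and under DESeq2 or without the filter. Ndufb2 had a larger difference, -0.20 ± 0.10, that was not called, but it was called lower with length offsets (log2 fold change -0.40, adjusted p = 0.00564, edgeR), with length and GC offsets, with library size only, on both FPKM scales and on TPM. Ndufb3 and Ndufb8 had log2 fold changes of 0.0042 and 0.12. Ndufb8 was called higher without risperidone 2 (log2 fold change 0.15, adjusted p = 0.045, edgeR), and Ndufb3 lower on TPM (adjusted p = 0.00375, limma).

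The N and ND4 modules had the highest medians. The medians of the ND4 and N modules, less that of all genes, stayed above 0 under every setting tried, at 0.26 to 0.47 for ND4 and 0.17 to 0.40 for N. Those of the Q, ND1, ND2 and ND5 modules turned below 0 once the trend with gene length was removed, at -0.092, -0.080, -0.061 and -0.090. The differences between modules were not tested, since members of a module are not replicates of a treatment.

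**Figure D2:**
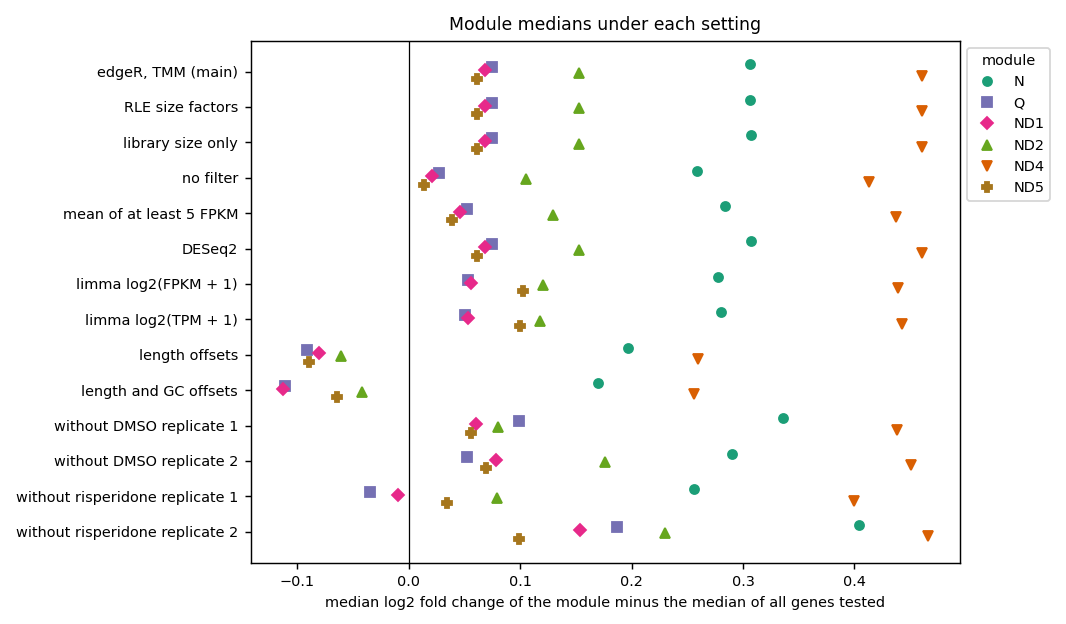
Median log2 fold change of each assembly module (symbols), less the median over all genes tested, under each way of scaling, filtering or testing and with each library left out. ND4 (0.26 to 0.47) and N (0.17 to 0.40) lie to the right of 0 in every line, while Q, ND1, ND2 and ND5 lie between -0.11 and 0.23 and fall below 0 with length offsets.

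By class, 2 of 7 core subunits (28.6%), among them Ndufv1, were higher and 0 lower, with a median log2 fold change of 0.099, against 19 of 30 accessory subunits (63.3%) higher and 1 lower, with a median of 0.27. Over all genes 32.1% were higher. With length offsets the class medians, less that of all genes, were 0.022 (core) and 0.098 (accessory). With length and GC offsets they were 0.070 and 0.12. The iron-sulphur subunits, Ndufv1, Ndufv2, Ndufs1, Ndufs7 and Ndufs8, held 1 called member of 5, and both LYR subunits, Ndufa6 and Ndufb9, were called higher. Of 4 twin-cysteine-motif subunits, Ndufb10 was higher, Ndufb7 lower, and Ndufa8 and Ndufs5 were not called. These 3 groups were drawn up with the values known.

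Some Nduf genes stood outside the modules. Ndufa4, once counted with complex I and now with cytochrome c oxidase, had the highest level of all members, at 443 and 440.2 FPKM in DMSO and 455 and 435 FPKM in risperidone. On the FPKM scale its groups overlapped, while on the CPM scale it rose from 154 and 153 CPM to 170.0 and 164 CPM (log2 fold change 0.12 ± 0.046, adjusted p = 0.0361, edgeR). The call on Ndufa4 was lost without DMSO 1, DMSO 2 or risperidone 1 (log2 fold change 0.13, 0.12 and 0.094, adjusted p = 0.173, 0.193 and 0.120, edgeR). It was also lost with library size only, both other filters, DESeq2, both FPKM scales and both kinds of offset, and on TPM Ndufa4 was called lower (log2 fold change -0.13, adjusted p = 0.0249, limma). Ndufa4l2, a relative of Ndufa4 known from hypoxic cells, had counts of 1 and 0 in DMSO and 0 and 2 in risperidone. Ndufa11b, annotated as a transcribed pseudogene, had 0 and 1 in DMSO and 0 and 0 in risperidone. Both were at or under the limit that a count of 0 allows and were not tested.

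Levels per transcript length differed widely among the subunits. Mean FPKM over the libraries ranged 29.3-fold among tested subunits, from 15.1 (Ndufa11) to 443 (Ndufa4), with a median of 77.5 FPKM over the subunits in the table. The place of Ndufa11 depended on the length used. As counts and FPKM imply it, its length was close to that of Ndufs1, though their longest annotated transcripts were 918 and 2661 bases. By CPM, Ndufa11 (36.19 to 40.32) was not the lowest subunit and lay above Ndufb2 (14.27 to 17.45), for example. The assembly factors ranged from 5.34 FPKM (Ndufaf4) to 17.7 FPKM (Ndufaf8), and of these Ndufaf8 alone was above Ndufa11, the lowest tested subunit by FPKM. After Ndufa4 came Ndufv3 (316 FPKM), Ndufb4 (255 FPKM), Ndufa7 (253 FPKM), Ndufa12 (222 FPKM), Ndufb9 (220 FPKM) and Ndufa6 (202 FPKM). Among the core subunits Ndufs1 had the lowest mean, 32.0 FPKM, with Ndufs8 beside it at 32.3 FPKM. Neighbours in this order often overlapped between libraries, as Ndufb4 (217 to 309 FPKM) and Ndufa7 (226 to 302 FPKM) did. The correlation between log FPKM and log2 fold change was 0.113 over the 46 members of these 4 libraries.

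**Figure D3:**
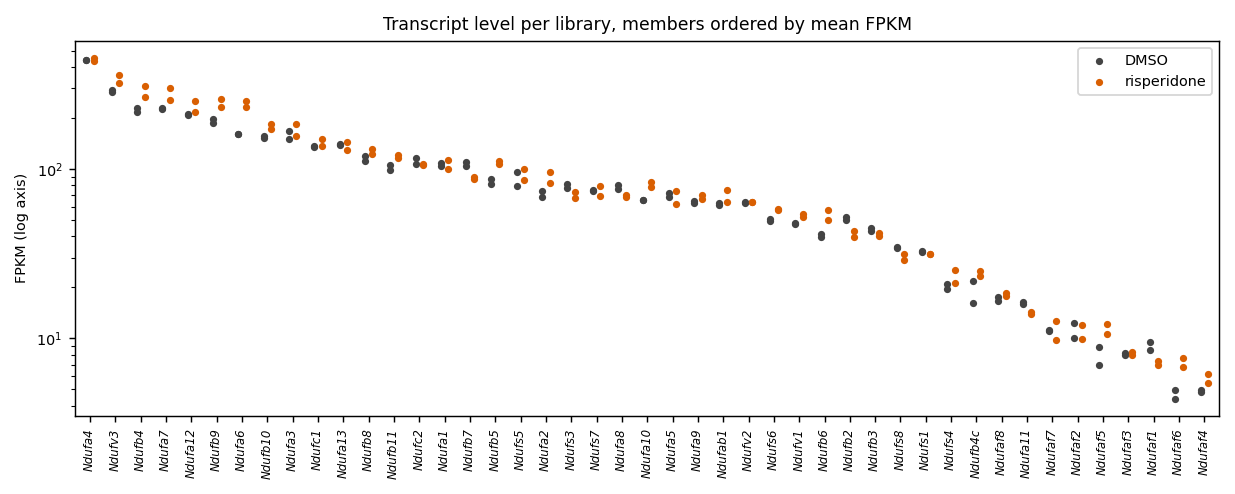
FPKM of 45 tested members in each library (log axis), grey for the 2 DMSO and orange for the 2 risperidone libraries, with members in order of their mean. Ndufa4 is highest at 435 to 455 FPKM and Ndufaf4 lowest with a mean of 5.34 FPKM, and the 8 assembly factors lie at the low end of the order, with Ndufa11 between Ndufaf8 and the others.

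Of the 8 assembly factors, 3 (37.5%, beside 32.1% of all genes) were higher and 0 lower, with a median log2 fold change of 0.16. Ndufaf6 (chr4:11048991-11076237), which acts early in the membrane arm with the ND1 subunit, stood at 4.04 and 4.57 CPM in DMSO and 7.49 and 6.58 CPM in risperidone. It was 1.63-fold higher, the largest change among the members (log2 fold change 0.71 ± 0.18, adjusted p = 0.00484, edgeR), from only 68 to 117 counts per library. Ndufaf5, the enzyme that hydroxylates Ndufs7, stood at 6.06 and 7.08 CPM and at 10.7 and 9.42 CPM. Ndufaf4, a partner of Ndufaf3 in assembling the Q module, stood at 16.3 and 16.7 CPM and at 22.4 and 19.8 CPM. Neither overlapped, and both were called, with log2 fold changes of 0.61 ± 0.15 and 0.35 ± 0.096 and adjusted p of 0.00490 and 0.00772 by edgeR. Without DMSO 1 both calls were lost (log2 fold change 0.51 and 0.34, adjusted p = 0.0622 and 0.0674, edgeR) and 1 assembly factor was left. The Ndufaf4 call was also lost on both FPKM scales and on TPM.

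The other assembly factors were not called. Ndufaf1, a member of the MCIA complex that builds the ND2 module, was lower in both risperidone libraries, at 12.0 and 10.9 CPM in DMSO and 9.34 and 10.1 CPM in risperidone (log2 fold change -0.24 ± 0.13, adjusted p = 0.136, edgeR). It was called lower with library size only (adjusted p = 0.0476, edgeR), on both FPKM scales and on TPM. Ndufaf2, which holds the place of Ndufa12 before the N module docks, was at 6.53 and 5.31 CPM and at 5.76 and 6.90 CPM. Ndufaf3 was at 7.25 and 7.38 CPM and at 8.12 and 7.74 CPM. The groups of Ndufaf2 overlapped, and those of Ndufaf3 did not, with risperidone higher. Ndufaf7, a mitochondrial protein methyltransferase, was at 21.6 and 22.6 CPM in DMSO and 26.4 and 21.4 CPM in risperidone, and Ndufaf8, a partner of Ndufaf5, at 5.82 and 6.16 CPM and at 6.97 and 6.77 CPM. Ndufaf7 overlapped and was called higher without risperidone 2 (log2 fold change 0.25, adjusted p = 0.0267, edgeR), and Ndufaf8 did not overlap. Part of the Ndufaf7 and Ndufa13 reads was shared with other genes, since their counts were not whole in every library.

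Of 13 tested assembly factors outside the Nduf names, 3 were higher, 1 was lower and 9 were not called, with a median log2 fold change of 0.042. The shares called, 23.1% higher and 7.69% lower, were below those over all genes (32.1% and 32.2%). Lyrm2, a LYR protein that acts late in assembly, was at 8.49 and 8.78 CPM in DMSO and 3.52 and 4.26 CPM in risperidone (log2 fold change -1.15 ± 0.17, adjusted p = 0.000154, edgeR), a larger change than that of any Nduf gene. Dmac2, linked to the distal membrane arm, was at 6.83 and 6.77 CPM and at 9.21 and 10.6 CPM (log2 fold change 0.55 ± 0.15), and Ecsit, of the MCIA complex, at 17.6 and 18.7 CPM and at 23.6 and 25.7 CPM (log2 fold change 0.45 ± 0.085). None of the 3 overlapped between treatments. Foxred1 was the remaining call, with a log2 fold change of 0.37. On the TPM scale the median turned to -0.19, with 1 higher and 6 lower, where 15.0% and 51.7% of all genes were called. With library size as the only scaling the median was -0.051. The medians of all genes under these 2 scalings were -0.22 and -0.093.

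Enzymes that feed or flank complex I were also listed. All 4 subunits of complex II, which passes electrons from succinate to ubiquinone, were higher in risperidone, where 32.1% of all genes were. Their median log2 fold change was 0.31. With library size only and on both FPKM scales, 3 of the 4 were called higher and 0 lower. Sdhb, the iron-sulphur subunit, was at 48.6 and 49.6 CPM in DMSO and 63.3 and 63.1 CPM in risperidone (log2 fold change 0.36 ± 0.063), and the membrane anchors Sdhc and Sdhd had log2 fold changes of 0.35 and 0.26. On the TPM scale 0 of the 4 were called in either direction, where 15.0% of all genes were called higher and 51.7% lower. Their median on that scale was 0.064, beside -0.22 over all genes. Of 9 tested genes of the NADH shuttles and nicotinamide nucleotide enzymes, 5 were higher and 3 lower, where 32.1% and 32.2% of all genes were called, against 1 and 3 on the TPM scale, on library size alone, on log2(FPKM + 1) and without DMSO 1, and 3 and 3 without DMSO 2 and with DESeq2. Gpd2, the mitochondrial enzyme of the glycerol phosphate shuttle, was at 39.0 and 39.6 CPM in DMSO and 57.5 and 53.4 CPM in risperidone (log2 fold change 0.50 ± 0.065), without overlap. Slc25a13, the aspartate-glutamate carrier citrin, and Nnt, the transhydrogenase that makes NADPH from NADH, were lower, with log2 fold changes of -0.45 ± 0.090 and -0.35 ± 0.052.

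Of 7 tested regulators of nuclear respiratory genes, 4 were lower and 2 higher, where 32.2% and 32.1% of all genes were called. Without DMSO 1, and with DESeq2, 2 were lower and 1 higher, and without DMSO 2, 3 were lower and 1 higher. Without risperidone 1, 4 were lower and 1 higher. Tfam, the transcription factor of mitochondrial DNA, was at 28.2 and 28.5 CPM in DMSO and 22.6 and 23.2 CPM in risperidone (log2 fold change -0.31 ± 0.067), and Yy1 at 87.8 and 89.9 CPM and at 74.1 and 75.4 CPM (log2 fold change -0.25 ± 0.056). Pprc1, a coactivator related to PGC-1α, was higher, at 57.7 and 54.7 CPM in DMSO and 81.2 and 79.3 CPM in risperidone (log2 fold change 0.51 ± 0.062). None of these overlapped, while Ppargc1a and Ppargc1b were under the filter. Nrf1 and Gabpa were lower, with log2 fold changes of -0.22 and -0.14, Gabpb1 was higher with 0.19, and Esrra was not called. Of the mitochondrial proteases known to turn over N module subunits, Clpp and Lonp1 were higher (log2 fold change 0.42 ± 0.059 and 0.24 ± 0.048) and Clpx, the partner of Clpp, was lower (-0.20 ± 0.060). The Clpx call was lost without DMSO 1, without risperidone 1 and with DESeq2, which left 0 of the 3 lower.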

How the data were processed

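Differentiated 3T3-L1 cells were analysed as 2 DMSO and 2 risperidone mRNA libraries, grouped by the treatment labels. The authors removed adaptor, poly-N and low-quality reads, mapped the rest and deposited estimated counts per gene, FPKM and TPM; the deposited estimated counts are unnormalised (91.2% to 91.7% whole), and the authors' averages were not used. The submitters' processing notes name Bowtie2, RSEM, DESeq2 and GRCm38.p6.

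Estimated counts were rounded and tested in R 4.3.3 with edgeR 4.0.16 (quasi-likelihood F-test, TMM factors 0.963 to 1.03, two-sided, threshold 0.05), with Benjamini-Hochberg adjustment over the 10243 genes whose mean reached 1 FPKM. Standard errors are the log2 fold change over the square root of F, and CPM is TMM-scaled. Alternatives used DESeq2 1.42.0, limma 3.58.1 on log2(FPKM + 1), log2(FPKM + 0.1) and log2(TPM + 1), other scalings and filters, offsets for length and GC content, a replicate block and each library left out. Simulated data with 200 altered genes served to check the scripts. Figures used Python 3.11.15 and matplotlib 3.10.9.

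Modules, classes, lists and members were chosen with earlier results of these data known. Values per library are given for core subunits, assembly factors, the largest change in each module, members lower or untested, Ndufa4, Ndufa4l2 and up to 3 called genes of each other list; Ndufb4c was added with its values known. Counts and medians cover every member, but 1 member is not reported here by name and is left out of the plots of single members. Gene coordinates and sequences are from RefSeq on GRCm38.p6, where all 48 members matched by gene identifier and 40 had a start-site window.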

Additional observations from a re-analysis of the deposited data

How the results depend on the processing

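Counts of calls below set aside members whose sign changed without a call under either setting. Subunits higher (22) came to 8 on log2(TPM + 1), 14 with length offsets and 13 with length and GC offsets. Subunits lower (1) came to 5 with library size only, 0 without the filter, 0 with DESeq2, 6 on both log2 FPKM scales, 15 on TPM, 5 with length offsets, 6 with length and GC offsets and 0 to 1 with a library left out. Assembly factors lower (0) came to 1 with library size only, on both FPKM scales and on TPM, and assembly factors higher (3) to 1 to 4 with a library left out. With the replicate number as a block, 22 subunits were higher and 0 lower, and 3 assembly factors higher and 0 lower, with the calls of Ndufb7 and Ndufa4 lost and Ndufs5 called higher. The numbers did not pair the libraries by their labels, and deviations of same-numbered libraries had a correlation of -0.105. A crossed pairing, added after the data were seen, called 26 members higher and 1 lower. Medians, less that of all genes, moved as follows with length offsets and with length and GC offsets: subunits 0.076 and 0.086, assembly factors 0.035 and 0.026, core 0.022 and 0.070, accessory 0.098 and 0.12, N 0.20 and 0.17, Q -0.092 and -0.11, ND1 -0.080 and -0.11, ND2 -0.061 and -0.042, ND4 0.26 and 0.26, ND5 -0.090 and -0.065. Without the filter they were 0.11 for assembly factors, 0.051 for core and 0.014 for ND5. On TPM core was 0.073 and ND5 0.10, on log2(FPKM + 1) and log2(FPKM + 0.1) ND5 was 0.10 and 0.11, and with Ndufa6 placed in Q, Ndufab1 in N and Ndufa11 in ND4, ND5 was 0.0038. With a library left out they ranged from 0.14 to 0.30 for subunits, 0.19 to 0.24 for assembly factors, 0.051 to 0.12 for core, 0.16 to 0.34 for accessory, 0.26 to 0.40 for N, -0.035 to 0.19 for Q, -0.0095 to 0.15 for ND1, 0.079 to 0.23 for ND2, 0.40 to 0.47 for ND4 and 0.034 to 0.099 for ND5. Signs turned on TPM for Ndufs1 (-0.20), Ndufv2 (-0.14), Ndufa5 (-0.20), Ndufa9 (-0.049), Ndufs7 (-0.15), Ndufa13 (-0.17), Ndufa3 (-0.055), Ndufa1 (-0.14), Ndufc1 (-0.070), Ndufc2 (-0.21), Ndufb3 (-0.24) and Ndufa4 (-0.13). They turned with length offsets and with length and GC offsets for Ndufa3 (-0.039 and -0.067), Ndufc1 (-0.033 and -0.0062) and Ndufa4 (-0.076 and -0.032). The cause was not tested, apart from the shift of all genes on TPM given above. With 2 libraries of pooled cultures per treatment, spread between single cultures is unknown, and the assembly factors rest on low counts.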
